A study of Mus musculus with 4 samples.

Results

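The genes described here are the 8 that write, maintain or remove DNA methylation in the mouse: Dnmt1, Dnmt3a, Dnmt3b, Dnmt3l, Uhrf1, Tet1, Tet2 and Tet3. They were taken by symbol from a table of 46406 gene rows, in which each of these 8 symbols had 1 row. All 8 passed the filter on low values. The table holds ATAC-seq, in which the transposase Tn5 cuts open DNA, so that reads collect where chromatin is accessible. The cells were J1 mouse embryonic stem cells, grown without feeder cells and labelled with passage PN+8. There were 2 control libraries, labelled wild type, and 2 libraries labelled Zscan4 OE, from cells overexpressing Zscan4, a zinc finger protein of the 2-cell embryo. The labels do not give the construct, its promoter, the Zscan4 copy, the length of overexpression, or whether controls carried an empty vector. Nor do they name separate cultures for the replicates, and the p-values therefore cover just the library-to-library spread, which may be technical.

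DNA methylation in mammals sits mostly on the cytosine of CpG pairs. Dnmt3a and Dnmt3b place new methyl groups with the help of Dnmt3l, which has no catalytic activity of its own, while Dnmt1, brought to newly copied DNA by Uhrf1, copies existing methylation to the daughter strand. The Tet enzymes oxidise 5-methylcytosine, a step towards its removal, and Tet1 and Tet2 are the main Tet enzymes of embryonic stem cells. Zscan4 has been linked to loss of DNA methylation in stem cells. The values describe how open the exons of these genes were. They measure neither RNA nor protein nor methylation.

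The deposited values did not use 1 total per library, and were rescaled so that each library has its own. RPKM below means this rescaled value, in which reads are divided by exon length and by the total of the same library. Control 1 had a total of 1061428 reads and control 2 of 2903602, Zscan4 OE 1 had 3605774 and Zscan4 OE 2 had 4899494, and 9.38% to 12.8% of these fell on exons. Where 4 values follow each other below, they are in that order of libraries. Both Zscan4 OE libraries were thus deeper than both controls. The 8 genes had 47 to 254 exon reads each over the 4 libraries and 1065 in all, so counting error is large, above all in control 1. Intervals given for single libraries are exact Poisson 95% intervals and cover counting error only. The recovered exon lengths ran from 2988 bp in Dnmt3l to 16870 bp in Tet2, 13.3% to 21.1% of the annotated gene spans.

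Across the 8 genes, Dnmt3l had the highest exon accessibility in both Zscan4 OE libraries and the largest difference between the groups. Control libraries gave 1.58 and 2.07 RPKM, and Zscan4 OE libraries 4.27 and 3.21 RPKM. Dnmt3a, Tet2 and Tet3 were also higher in both Zscan4 OE libraries than in both controls, by less. Dnmt1, Uhrf1, Dnmt3b and Tet1 overlapped between the groups. Over all tested rows 19.6% were higher and 10.1% lower in Zscan4 OE without overlap. With exon reads in place of library totals, Dnmt3a and Tet3 overlapped as well. No difference passed the threshold. In the limma test over all 42989 tested rows, 0 of the 8 genes had an adjusted p under 0.05, beside 0% of all rows called higher and 0% called lower, and the smallest adjusted p of any row was 0.156. At an unadjusted p under 0.05 limma gave 2189 higher and 573 lower rows (5.09% and 1.33%), and 0 of the 8 genes was among them. With voom on the reads, for rows with 20 reads or more, 0 rows were called higher and 1 lower. In bulk chromatin a locus open in more cells and a locus more open in each cell cannot be told apart.

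**Figure D1:**
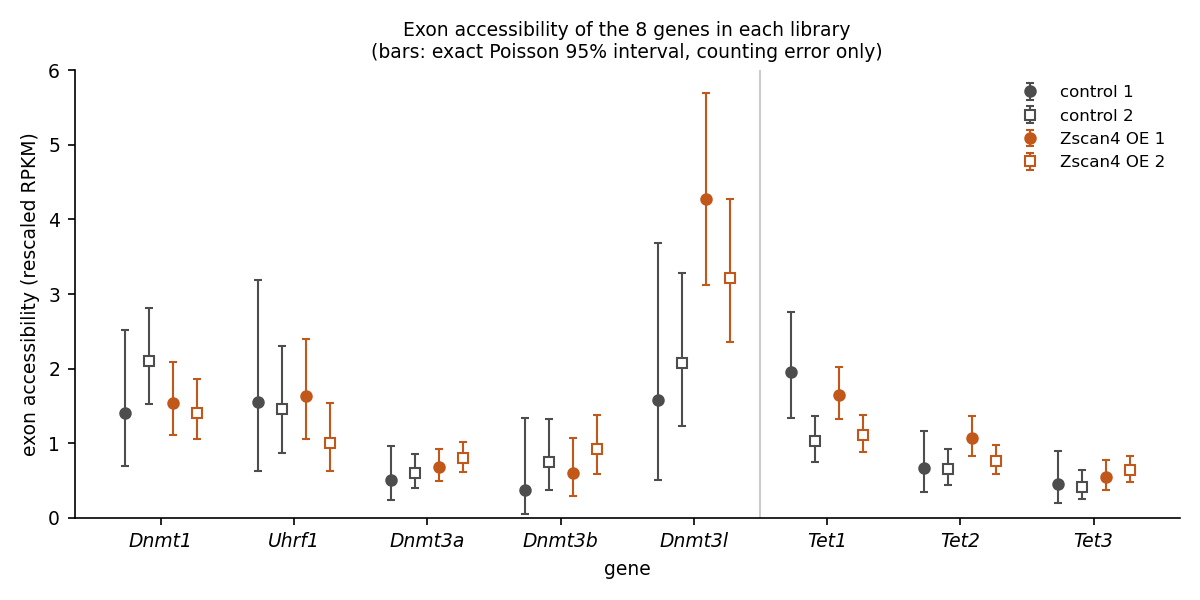
Exon accessibility of the 8 genes, in rescaled RPKM on a linear axis, with 1 point per library (filled for replicate 1, open for replicate 2) and exact Poisson 95% intervals. Dnmt3l reached 4.27 and 3.21 RPKM in Zscan4 OE, above its controls at 1.58 and 2.07, and the intervals of control 1 and of both Zscan4 OE libraries overlap.

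The maintenance pair, Dnmt1 and Uhrf1, overlapped between the groups. Dnmt1, the maintenance methyltransferase on chromosome 9 (20907206 to 20959888, GRCm38), had 11 and 45 reads in controls 1 and 2, against 41 and 51 in the pair of Zscan4 OE libraries. These correspond to 1.40, 2.10, 1.54 and 1.41 RPKM. Control 2 was the high library, and the other 3 lay close together. Control libraries averaged 1.75 ± 0.492 RPKM and Zscan4 OE libraries 1.48 ± 0.0922 (SD, n = 2), a log2 difference of −0.21 (SE 0.454; limma adjusted p = 0.960). Uhrf1, the hemimethylated DNA reader on chromosome 17 (56303337 to 56323486), had 7, 18, 25 and 21 reads in the same order, or 1.55, 1.46, 1.63 and 1.01 RPKM. Here Zscan4 OE 2 was the low library and Zscan4 OE 1 was above both controls. Its means were 1.502 ± 0.0657 and 1.32 ± 0.440 RPKM (SD, n = 2; log2 difference −0.21, SE 0.474, limma adjusted p = 0.962). Without control 2 the difference of Dnmt1 turned to 0.07, and without Zscan4 OE 2 that of Uhrf1 turned to 0.11.

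The de novo enzymes were among the less accessible of the 8 genes. Dnmt3a (chromosome 12, 3801559 to 3914443) had 9, 29, 41 and 65 reads, or 0.510 and 0.6001 RPKM in controls against 0.683 and 0.797 with Zscan4 OE. Both Zscan4 OE libraries were above both controls, and the lowest of them was 1.14 times the highest control. The log2 difference was 0.36 (SE 0.544, 95% interval −1.09 to 1.81, limma adjusted p = 0.915). Dnmt3b (chromosome 2, 153649411 to 153687730) had the fewest reads of the 8 genes, 2, 11, 11 and 23, or 0.369, 0.742, 0.597 and 0.919 RPKM. Control 2 lay between the 2 Zscan4 OE libraries, so the groups overlapped. The log2 difference of Dnmt3b was 0.42 (SE 0.637, limma adjusted p = 0.913), and it was −0.03 after quantile normalization, 0.0021 without control 1 and 0.85 without control 2. Per length the ratio of Dnmt3a to Dnmt3b was 1.38, 0.809, 1.14 and 0.867 in the 4 libraries, so neither was above the other throughout.

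Dnmt3l, the non-catalytic partner of the de novo enzymes, lies on chromosome 10 from 78042287 to 78063622. Its reads numbered 5 and 18 in control libraries, against 46 and 47 with overexpression. The group means were 1.83 ± 0.352 and 3.74 ± 0.749 RPKM (SD, n = 2), a 2.05-fold ratio, and the lower Zscan4 OE library exceeded the higher control 1.55-fold. The counting intervals were 0.512 to 3.68 RPKM in control 1, 1.23 to 3.28 in control 2, 3.13 to 5.69 in Zscan4 OE 1 and 2.36 to 4.27 in Zscan4 OE 2. The groups did not overlap in their values, but their counting intervals did. The log2 difference was 0.99 (SE 0.446), with a 95% interval from −0.19 to 2.18, that is from 0.874-fold to 4.54-fold, and a limma adjusted p of 0.869. It stayed positive in each of 15 other fits, between 0.72 and 2.05, with adjusted p from 0.347 to 0.999. The 2.05 and the 0.347 came from the values as deposited, which do not use 1 total per library. The next highest difference was 1.19. The median of all tested rows was 0.28 above 0 on this scale and that of rows with 100 reads or more 0.11, and relative to these Dnmt3l stood at 0.72 and 0.88.

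Ratios within a library rest on the recovered reads and lengths, and do not depend on which total was placed on which library. Per length, Dnmt3l was at 1.12 and 0.988 times Dnmt1 in control libraries, against 2.77 and 2.28 times with overexpression. Against Dnmt3a the ratios were 3.09 and 3.46 in controls, against 6.25 and 4.03 with overexpression. Against Dnmt3b they were 4.27 and 2.80, against 7.15 and 3.49 with overexpression, so here the groups overlapped. Dnmt3l held 5.81% of the reads of the 8 genes in control 1 (exact binomial 95% interval 1.91% to 13.0%), 8.22% in control 2 (4.94% to 12.7%), 13.0% in Zscan4 OE 1 (9.67% to 16.9%) and 11.6% in Zscan4 OE 2 (8.63% to 15.1%). Both shares in Zscan4 OE were above both in controls, with overlapping intervals.

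The genes beside Dnmt3l did not separate the groups. Aire, a regulator of tolerance in the thymus whose annotated span overlaps the 5′ end of Dnmt3l, was at 1.48, 1.53, 1.595 and 1.17 RPKM in controls 1 and 2 and then Zscan4 OE 1 and 2. Icosl, a T cell costimulatory ligand gene 5746 bp beyond its 3′ end, was at 1.63, 0.596, 1.44 and 1.28 RPKM. Pfkl, a glycolysis enzyme gene on the other side, was at 1.69, 0.722, 1.99 and 1.44 RPKM. Exons were not compared here, and the gene to which reads on any exon shared by Aire and Dnmt3l were counted is unknown. The pseudogene Dnmt3l-ps1 on chromosome 2 had 1, 3, 2 and 5 reads, and whether reads were split between it and Dnmt3l was not tested.

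Dnmt3l differed from the other 7 genes in the highest CpG count among its sequences before annotated starts. CpG is the substrate of this machinery. RefSeq gives 15 starts for the 8 genes on GRCm38.p6, of which 3 belong to Dnmt3l. The 250 bases before each Dnmt3l start and, for contrast, before the Tet2 start and the first Dnmt3a start are printed 5′ to 3′ on the strand of the gene, with each CpG in capitals.
Dnmt3l start 78042287 (chr10:78042037-78042286, plus strand): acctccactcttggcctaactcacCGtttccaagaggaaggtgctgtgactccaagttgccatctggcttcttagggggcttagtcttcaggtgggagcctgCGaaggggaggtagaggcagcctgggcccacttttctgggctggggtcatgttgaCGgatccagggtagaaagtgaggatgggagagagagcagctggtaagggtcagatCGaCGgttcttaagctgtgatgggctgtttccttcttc
Dnmt3l start 78049842 (chr10:78049592-78049841, plus strand): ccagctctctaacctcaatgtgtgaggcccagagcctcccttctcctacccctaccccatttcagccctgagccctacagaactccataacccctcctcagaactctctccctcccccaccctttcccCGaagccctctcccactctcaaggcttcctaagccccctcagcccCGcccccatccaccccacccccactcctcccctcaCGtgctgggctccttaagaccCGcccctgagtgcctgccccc
Dnmt3l start 78055335 (chr10:78055085-78055334, plus strand): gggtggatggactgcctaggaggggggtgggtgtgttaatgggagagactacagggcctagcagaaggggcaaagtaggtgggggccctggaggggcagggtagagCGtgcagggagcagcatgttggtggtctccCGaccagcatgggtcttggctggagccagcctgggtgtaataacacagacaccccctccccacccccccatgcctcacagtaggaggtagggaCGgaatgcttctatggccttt
Dnmt3a start 3806980 (chr12:3806730-3806979, plus strand): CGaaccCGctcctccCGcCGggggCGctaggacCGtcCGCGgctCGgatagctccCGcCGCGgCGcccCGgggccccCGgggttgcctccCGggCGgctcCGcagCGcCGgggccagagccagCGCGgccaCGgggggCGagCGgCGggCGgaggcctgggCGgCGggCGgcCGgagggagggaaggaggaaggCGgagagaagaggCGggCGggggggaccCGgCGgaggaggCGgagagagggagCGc
Tet2 start 133544390 (chr3:133544391-133544640, minus strand): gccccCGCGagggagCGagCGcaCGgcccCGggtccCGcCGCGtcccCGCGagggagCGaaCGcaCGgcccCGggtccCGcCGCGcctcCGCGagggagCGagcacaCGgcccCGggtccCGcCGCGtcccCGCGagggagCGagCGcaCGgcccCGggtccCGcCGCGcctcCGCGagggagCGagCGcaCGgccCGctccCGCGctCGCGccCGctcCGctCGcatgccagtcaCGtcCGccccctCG

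The 3 Dnmt3l windows held 5, 4 and 3 CpG, below the median of 6 over 32851 windows of the same kind. The Tet2 window held 51 CpG, as many as or more than 99.95% of all windows, and the Dnmt3a windows 38, 40 and, at an internal start, 15. For the other genes there were 21 in Dnmt3b, 15 in Tet1, 17 in Tet3, 10 and 30 in Uhrf1, and 26, 7 and 2 in Dnmt1, whose window with 2 lies at its most upstream start. Every member other than Dnmt3l thus had at least 1 window with 15 CpG or more. Fewer CpG than in the 3 Dnmt3l windows were held by 44.4%, 37.8% and 29.0% of all windows. The ratio of observed to expected CpG was 0.272, 0.250 and 0.135 in Dnmt3l. Its median was 0.374 over all windows, and it was 1.19 in Tet2. The Dnmt1 windows with 7 and 2 CpG were at 0.380 and 0.126, so the lowest ratio of the 15 windows was in Dnmt1. The sequence TGCACAC, which Zscan4 has been reported to bind, was searched on both strands and was in 0 of the 15 windows, while 3.67% of all windows hold it. The accessibility of these windows was not measured as such, since the counted features are taken to be exons.

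Among the Tet genes, Tet1 and Tet2 were higher in the first than in the second library of each group, as was Uhrf1. Tet2 and Tet3 were higher in both Zscan4 OE libraries than in both controls. Tet1, the most abundant Tet gene in embryonic stem cells (chromosome 10, 62804570 to 62887469), had 32, 46, 92 and 84 reads, or 1.95, 1.025, 1.65 and 1.11 RPKM. Replicate 1 was the higher library in both groups, and the groups overlapped. The log2 difference was −0.06 (SE 0.542, limma adjusted p = 0.993), and it was 0.37 without control 1 and −0.50 without control 2. The share of exon reads in the library total also went with the replicate number. It was 12.4% and 12.8% in the first and 9.38% and 9.93% in the second libraries. Dnmt3a and Dnmt3b went the other way, lower in the first than in the second library of each group. The part of the exon-read share in the values of these genes was not tested.

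Tet2, which in embryonic stem cells acts mostly in gene bodies and at enhancers (chromosome 3, 133463677 to 133545136), had 12, 32, 65 and 63 reads. Its level was 0.670, 0.653, 1.07 and 0.762 RPKM, so both Zscan4 OE libraries were above both controls, the lower of them by 1.14-fold. Tet3, the Tet enzyme of oocytes and zygotes (chromosome 6, 83362373 to 83457208), had 8, 20, 33 and 52 reads, or 0.451, 0.413, 0.548 and 0.636 RPKM. The lower Zscan4 OE library exceeded the higher control 1.21-fold. The log2 differences were 0.40 (SE 0.518) for Tet2 and 0.38 (SE 0.598) for Tet3, with limma adjusted p of 0.884 and 0.924. The 95% intervals, −0.98 to 1.78 and −1.22 to 1.97, correspond to 0.506- to 3.43-fold and 0.430- to 3.92-fold. Tet3 was at −0.05 after quantile normalization. Tet1 was above Tet2 and Tet3 per length in all 4 libraries, by 1.46- to 2.91-fold over Tet2 and 1.74- to 4.32-fold over Tet3.

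**Figure D2:**
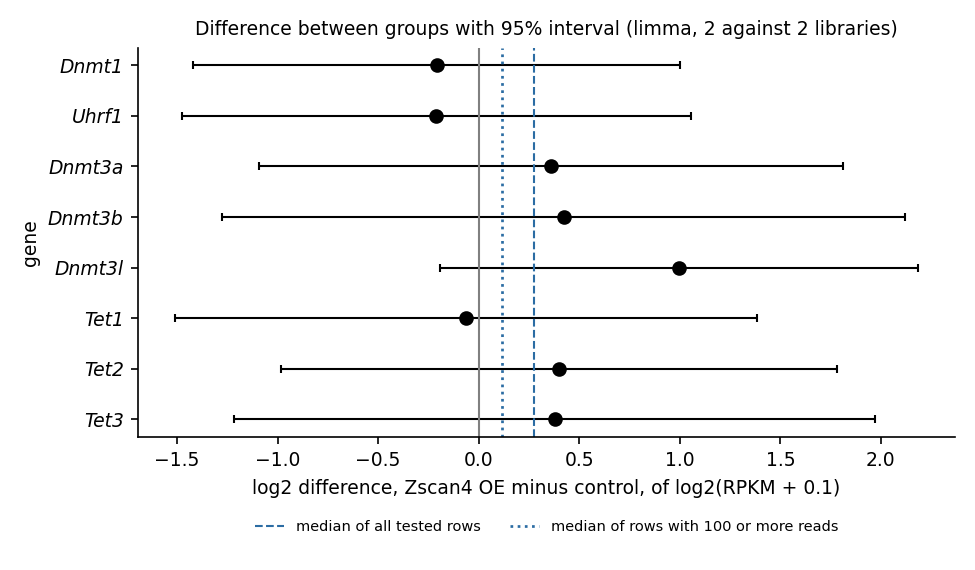
Log2 difference of the 8 genes between Zscan4 OE and control on the log2(RPKM + 0.1) scale, with limma 95% intervals from 2 against 2 libraries, and the medians of all tested rows (0.28) and of rows with 100 reads or more (0.11) as vertical lines. Every interval includes 0, and that of Dnmt3l, from −0.19 to 2.18, lies farthest to the right at its lower end.

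Values that did not overlap between the groups were found in 4 of the 8 genes, all higher in Zscan4 OE (Dnmt3l, Dnmt3a, Tet2 and Tet3), and in 0 in the other direction. Over all tested rows 19.6% were higher and 10.1% lower by the same rule, and over 9076 protein-coding genes with as many reads as these (47 to 254) 19.7% and 9.88%. The count of 4 rests on the denominator. With exon reads in place of library totals it was 2, Dnmt3l and Tet2, beside 19.2% of all rows higher and 12.6% lower. The median log2 difference was 0.37 over the 8 genes, 0.36 over the 5 methylation genes and 0.38 over the 3 Tet genes. It was 0.28 over all tested rows, 0.14 over those with 20 reads or more and 0.11 over those with 100 or more. Relative to the 0.28, and also to the 0.11, 5 of the 8 were above and 3 below.

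In order of mean level over the 4 libraries, Dnmt3l came first at 2.78 ± 1.20 RPKM, then Dnmt1 at 1.61 ± 0.330, Tet1 at 1.43 ± 0.442 and Uhrf1 at 1.41 ± 0.278 (SD, n = 4 libraries of both groups). Tet2 followed at 0.789 ± 0.193, Dnmt3b at 0.657 ± 0.233, Dnmt3a at 0.648 ± 0.122 and Tet3 at 0.512 ± 0.1003. By rank within each library the genes fell into an upper and a lower set of 4. Dnmt3l, Dnmt1, Tet1 and Uhrf1 held ranks 1 to 4 in all 4 libraries, and the other 4 genes ranks 5 to 8. Within the upper set Dnmt3l was above Dnmt1 in 3 of 4 libraries, Dnmt1 above Tet1 in 2 and Tet1 above Uhrf1 in 3, and within the lower set Tet2 was above Dnmt3b in 2 and Dnmt3b above Dnmt3a in 2, with overlapping ranges for each pair. Uhrf1 was above Tet2 and Dnmt3a above Tet3 in all 4 libraries, though the ranges over libraries overlapped for both pairs. The lowest value of the upper set was 1.01 RPKM and the highest of the lower set 1.07, in different libraries.

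Percentiles among other genes come from the same RPKM values, so the 2 sets keep their order there by construction. Among protein-coding genes with 20 reads or more, Dnmt3l was at percentile 70.5 in control 1, 94.7 in control 2, 97.4 in Zscan4 OE 1 and 98.6 in Zscan4 OE 2. Tet3 was between 10.5 and 22.2 and Dnmt3a between 17.7 and 38.3. Dnmt1 was between 64.6 and 94.9. A percentile in a shallow library is blurred by counting error, and control 1 held 5 reads of Dnmt3l.

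**Figure D3:**
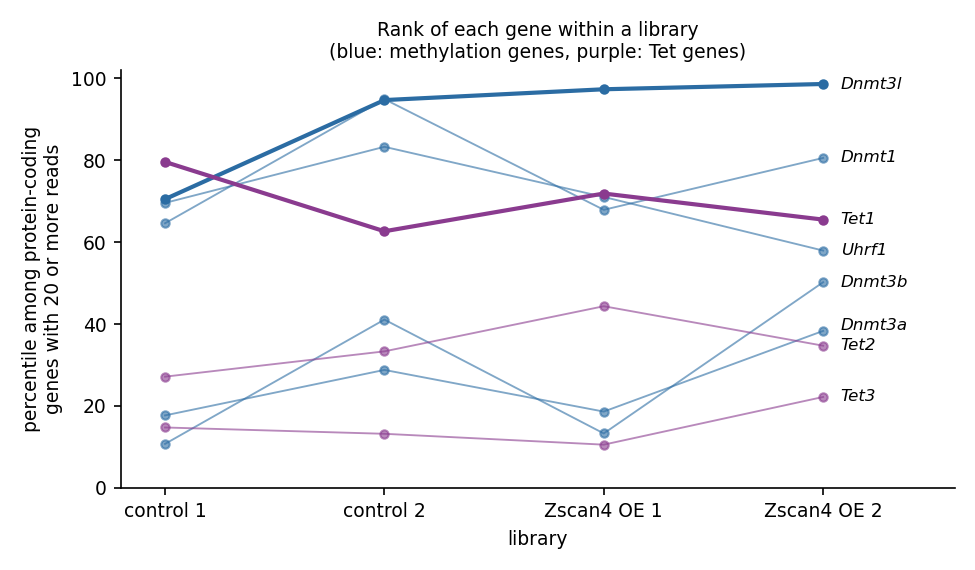
Percentile of each of the 8 genes among protein-coding genes with 20 reads or more, by RPKM within each library, with lines joining the same gene and thicker lines for Dnmt3l and Tet1. Dnmt3l stands at 94.7 to 98.6 in 3 libraries and at 70.5 in control 1, while Dnmt3a, Dnmt3b, Tet2 and Tet3 are at 50.2 or below in each library.

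Summed by role, the methylating and the demethylating side had similar numbers of reads, which are not divided by exon length here. Recovered exon lengths were 2988 to 16642 bp in the 5 methylation genes and 15457 to 16870 bp in the 3 Tet genes. Similar reads are thus not similar levels per length. The 5 methylation genes together had 32.0 and 41.7 RPM (reads in every 1000000 of the library total) in controls 1 and 2, against 45.5 and 42.2 RPM with overexpression. Their lowest Zscan4 OE value was above the highest control by less than 1 RPM, and the group means differed 1.19-fold. Without Dnmt3l the other 4 had 27.3, 35.5, 32.7 and 32.7 RPM, so these overlapped. The 3 Tet genes had 49.0, 33.8, 52.7 and 40.6 RPM, which also overlapped, with a ratio of 1.13 that was 0.952 without control 2 and 0.982 without Zscan4 OE 1. Set against exon reads instead of library totals, the methylation genes overlapped (ratio 1.11), and the Tet genes were higher in both Zscan4 OE libraries, with means of 378 and 410 reads in every 1000000 exon reads (ratio 1.09). Tet genes held 60.5% of the reads of all 8 genes in control 1 (exact binomial 95% interval 49.3% to 70.8%), 44.7% in control 2 (38.0% to 51.6%), 53.7% in Zscan4 OE 1 (48.3% to 59.0%) and 49.0% in Zscan4 OE 2 (44.1% to 54.0%). The balance of reads between the sides was therefore not shown to differ between the groups at this depth.

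Other genes of the pathway gave no call either. In 7 related lists with 78 tested genes, 0 passed the limma threshold over all rows in either direction. The summed RPM of each of these lists overlapped between the groups. The median log2 difference was 0.28 over all tested rows and 0.14 over those with 20 reads or more, so most rows were positive. Counts of positive genes and list medians below are to be read beside these values. Log2 differences were positive for 10 of 15 maintenance cofactors and negative for 5 (median 0.61). Hells, a chromatin remodeler needed for methylation, was the highest, at 0.655 ± 0.183 RPKM in control libraries against 1.48 ± 0.249 with overexpression (SD, n = 2; log2 difference 1.08, SE 0.4997, limma adjusted p = 0.869), from 6, 11, 43 and 46 reads. Both its Zscan4 OE libraries were above both controls. Dmap1, a Dnmt1-associated protein gene, had the lowest of that list at −0.26. Of 8 methyl-CpG readers 3 were positive and 5 negative (median −0.11). They ran from Mbd2 at 1.35, with 3, 4, 23 and 24 reads, to Zbtb33, the Kaiso reader gene, at −0.88 with 3, 4, 2 and 6 reads.

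Genes that act after Tet oxidation or supply its cofactors were spread around the median of all rows. Of 16 genes of demethylation and base excision repair 11 were positive and 5 negative (median 0.24). Gadd45g, a stress-response gene tied to demethylation, was the highest at 2.40 with 1, 0, 6 and 9 reads. Of 11 Tet partners and cofactor genes 5 were positive and 6 negative (median −0.01). Prdm14, a pluripotency factor that represses de novo methylation, was the lowest of these, at 1.84, 1.88, 1.08 and 1.03 RPKM (log2 difference −0.76, SE 0.422, limma adjusted p = 0.869). Both Prdm14 values in Zscan4 OE were below both controls. Wt1, a zinc finger protein that binds Tet2, was the highest at 0.60.

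The 12 genes of methyl donor supply had 7 positive and 5 negative differences (median 0.12). Gnmt, which consumes the methyl donor S-adenosylmethionine, was the highest at 3.10, with 0, 1, 8 and 8 reads (limma unadjusted p = 0.022, adjusted p = 0.570), and Mtr, methionine synthase, the lowest at −0.90 with 14, 52, 31 and 35 reads. Germline genes that DNA methylation keeps silent had 10 positive and 4 negative differences of 14 (median 0.56). They ran from Asz1, a piRNA pathway gene, at 1.75 with 0, 5, 11 and 8 reads to Hormad1, a meiotic chromosome axis gene, at −2.63 with 2, 3, 0 and 1 reads (limma adjusted p = 0.705). Of the other methyltransferases, Trdmt1, a tRNA methyltransferase of the same fold, was at 0.30. Dnmt3c, a rodent duplicate of Dnmt3b that acts in male germ cells, had 0, 7, 5 and 13 reads and a difference of 1.49 (SE 1.37, limma adjusted p = 0.869). Reads could be split between it and Dnmt3b, so the values of both are uncertain.

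**Figure D4:**
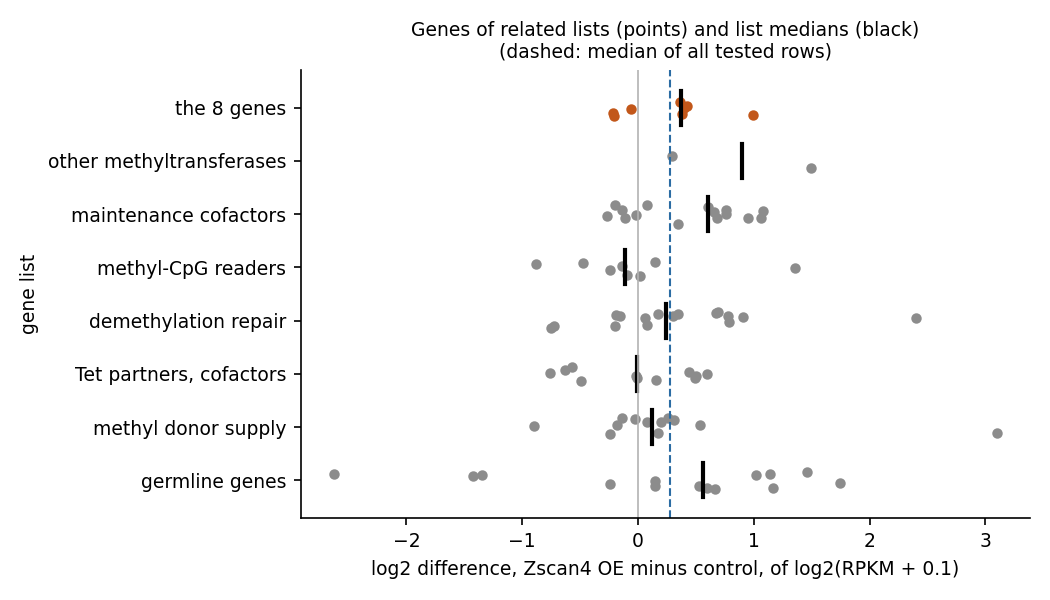
Log2 difference of each tested gene of the 7 related lists and of the 8 genes (points) on the log2(RPKM + 0.1) scale, with the list medians in black and the median of all tested rows (0.28) dashed. Medians range from −0.11 in the methyl-CpG readers to 0.61 in the maintenance cofactors, apart from the 2 other methyltransferases at 0.89.

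The 10 markers of the labelled cell type, pluripotency genes, had reads in every library. So did the 8 primitive endoderm markers, and having reads does not tell cell types apart here. The pluripotency markers had a mean of 2.35, 1.20, 2.72 and 1.73 RPKM, against 1.32, 0.956, 1.42 and 1.024 RPKM over all rows. The means were 1.01, 1.03, 1.03 and 0.851 RPKM for 10 fibroblast markers and 1.01, 0.816, 1.11 and 1.05 RPKM for 8 trophectoderm markers. For the primitive endoderm markers they were 1.29, 1.11, 0.908 and 0.737 RPKM. As a sum the 8 primitive endoderm markers were at 58.4 and 47.9 RPM in controls against 39.4 and 35.7 RPM with overexpression. The sums of the other marker lists, like those of the 7 related lists, overlapped between the groups. Of the log2 differences of the primitive endoderm markers 2 were positive and 6 negative, from Dab2 at 0.18 to Sox17 at −0.87. Of these 8 genes 0 passed the limma threshold. Their part in the values of Dnmt3l, Dnmt3a, Tet2 and Tet3 was not tested. Exon accessibility of a marker gene is not its expression, so these levels describe chromatin only.

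The genes whose profile over the 4 libraries lay closest to the median of the 8 were N4bp2l2, Nup153 and 1700057G04Rik, among protein-coding genes with 20 reads or more. Their Euclidean distances on the log2(RPKM + 0.1) scale were 0.0856, 0.119 and 0.131. The median of the 8 genes was 0.977, 0.873, 1.28 and 0.962 RPKM, and N4bp2l2 was at 0.971, 0.828, 1.24 and 0.970 RPKM.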

How the data were processed

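The submitters' processing notes name featureCounts, Bowtie2, Trimmomatic and mm10, with versions, read filters, duplicate handling, Tn5 shift and annotation not given in the sources used here. Deposited values are called RPKM per the labels. Each equals whole reads divided by a length and by 1 of 8 totals that take turns over rows and columns. All 38361 rows with 2 or more values allowed exactly 1 rotation, which gave reads and exon lengths. Totals were placed on libraries, among 8 placements in rotation order, where exon-read shares were most alike (ratio 1.36, otherwise 4.17 to 10.1), and RPKM was recomputed from them. That placement was chosen, not given.

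limma 3.58.1 in R 4.3.3 was run on log2(RPKM + 0.1) with eBayes trend, no covariate, rows with mean RPKM of at least 0.1, two-sided, Benjamini-Hochberg adjustment over all rows, threshold 0.05. The plan took the values as RPKM per library, so the values as deposited became an alternative. A log2 difference understates changes of low values. Recovery and fit were tested on simulated data. The related-list genes named are the highest and lowest of each list, except 1 that is not reported here. Members and lists were chosen with earlier results of these data known. Promoter sequences and coordinates come from RefSeq GRCm38.p6, and 8 of 8 symbols matched.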

Additional observations from a re-analysis of the deposited data

How the results depend on the processing

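None of the 8 genes passed the threshold in the main test or in 15 alternatives, and Dnmt3l, Dnmt3a and Tet2 were positive in each. In the values as deposited, where totals rotate, Dnmt1 turned to 0.84, Uhrf1 to 1.70 and Tet1 to 1.68, and the summed ratios were 2.996 for the 5 methylation genes and 3.52 for the 3 Tet genes, against 1.19 and 1.13. Quantile normalization turned Dnmt3b to −0.028 and Tet3 to −0.049. Leaving out 1 library in turn gave −0.48 to 0.066 for Dnmt1, −0.53 to 0.11 for Uhrf1 and −0.50 to 0.37 for Tet1. The number of non-overlapping members higher in Zscan4 OE was 4, and 2 with exon reads as denominator and 6 as deposited, both chosen after seeing the data. The cause was not tested.

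Over all rows 0 were called. With 20 reads or more 4 were higher and 1 lower, and voom on these gave 0 and 1. Leaving out 1 library gave 0 to 4530 higher and 0 to 6 lower (without Zscan4 OE 1 4530 and 6, without Zscan4 OE 2 3889 and 2, without either control 0 and 0). With the replicate number as a block 0 rows were higher and 0 lower, and also at 20 reads or more, a fit chosen after seeing the data. Same-numbered libraries correlated at 0.129 in their deviations from the group means, and 2 pairs do not settle whether the numbers pair the libraries. Fits with 1 library in a group assume that it varies like the other group. Depth limits the genes with few reads most, with 2 reads of Dnmt3b and 5 of Dnmt3l in control 1.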

Other observations

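Antisense and pseudogene rows of the family had too few reads to set beside their partners. Dnmt3aos, an antisense RNA gene within the span of Dnmt3a, had 1, 1, 6 and 4 reads in controls 1 and 2 and Zscan4 OE 1 and 2. ATAC-seq reads carry no strand, so reads of a gene and of its antisense partner cannot be told apart where their exons overlap. Dnmt3bos had 1, 2, 3 and 4 reads, and Dnmt3a-ps1, a pseudogene on chromosome 3, had 0, 0, 6 and 1.

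Of the 16 nearest protein-coding genes on either side of the 8, 3 were higher and 2 lower in Zscan4 OE without overlap between the groups, and 11 overlapped. Over all tested rows 19.6% were higher and 10.1% lower by this rule. The 5 genes are named after their values were seen. Pomc, the pro-opiomelanocortin gene 40502 bp from Dnmt3a, was at 1.43, 1.31, 2.95 and 2.17 RPKM. Dnmt3a was higher in both Zscan4 OE libraries in RPKM, but overlapped with exon reads as denominator. Whether the 2 genes vary together was not tested. Commd7 and Mapre1, on either side of Dnmt3b, were at 0.858, 0.313, 0.959 and 1.003 RPKM and at 0.362, 0.441, 1.14 and 0.627 RPKM, while Dnmt3b overlapped. S1pr2, a sphingosine phosphate receptor gene 6064 bp from Dnmt1, was at 1.89, 1.60, 0.870 and 0.563 RPKM, and Slc25a16, a mitochondrial carrier gene beside Tet1, at 1.18, 1.08, 0.867 and 1.021 RPKM, while Dnmt1 and Tet1 overlapped.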
